A study of Mus musculus with 2 samples.

Results

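Transforming growth factor beta (TGF-beta) is represented here by 9 genes: the ligands Tgfb1, Tgfb2 and Tgfb3, the receptors Tgfbr1, Tgfbr2 and Tgfbr3, the latent-binding proteins Ltbp1 and Ltbp3, and the induced matrix protein Tgfbi. They were chosen by symbol from the 27998 genes of the tables, and all 9 were found in both tables. In the GENCODE annotation of GRCm38 they lie on 9 different chromosomes, in the order named 7, 1, 12, 4, 9, 5, 17, 19 and 13. The data are single-cell RNA counts of ventricular non-myocytes from 2 wild type C57BL/6 mice aged 10-12 weeks, with 1 droplet library per mouse and no treatment or second genotype. Hearts were perfused and dissociated, the atria and the myocyte pellet were discarded, red cells were lysed, and cells negative for the dye 7-AAD were sorted before capture. The comparisons are between cell classes of the same 2 hearts.

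TGF-beta ligands are secreted in a latent form, held by their own propeptide and bound through it to a latent TGF-beta binding protein that anchors the complex in the matrix. Once released, a ligand binds the type II receptor, which recruits and phosphorylates the type I receptor, and SMAD proteins carry the signal to the nucleus. The type III receptor, betaglycan, has no kinase and presents ligand to the type II receptor. In heart the pathway is known for its part in fibroblast activation and scar formation and in the formation of valves from endocardium.

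Cells were assigned by raw counts of unique molecular identifiers (UMIs, each marking 1 captured RNA molecule). Fibroblasts had at least 5 UMIs of Dcn, endothelial cells at least 2 of Pecam1, Cdh5 and Egfl7, mural cells (pericytes and smooth muscle) at least 4 of Rgs5, Kcnj8 and Vtn, and macrophages at least 15 of C1qa, C1qb and C1qc, each sum taken per cell. Of 12295 cells kept (6608 in mouse 1 and 5687 in mouse 2), 1860 and 1303 were fibroblasts, 929 and 1269 endothelial cells, 63 and 42 mural cells, and 2997 and 2361 macrophages. A further 188 and 130 cells passed more than 1 of these gates and were left out, and 571 and 582 passed none. Fibroblasts were split by Pi16 (at least 2 UMIs) and by the matrix genes Cilp, Postn and Thbs4 (at least 4 UMIs together), and endothelial cells with at least 2 UMIs of Npr3 and Cytl1 were called endocardial.

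The labels were checked against marker genes that were not used in the gates. Col1a1 had a UMI in 68.4% and 77.3% of fibroblasts, Kdr in 46.7% and 49.5% of endothelial cells, Notch3 in 41.3% and 54.8% of mural cells and Csf1r in 85.5% and 85.9% of macrophages. The mural cells also held endothelial markers: all 6 were detected, at a summed 1164 and 1361 CPM (UMIs of a gene per 1000000 UMIs of the summed cells), against 3612 and 3726 CPM in endothelium. Endothelium held lymphatic markers, all 4 detected, at a summed 540.5 and 1723 CPM. Mouse 1 carried more cardiomyocyte marker RNA, for example 325 against 138 CPM in fibroblasts, and more neutrophil marker RNA, 299 against 2.73 CPM in fibroblasts. The part of these markers in the values below was not tested unless a value without such cells is given. Median depth per cell was 2752 and 2471 UMIs in fibroblasts, 1463 and 1410 in endothelium, 1295 and 1294 in mural cells, and 2845 and 2616 in macrophages. Mural libraries held 90219 and 55838 UMIs in all, so 1 UMI there is worth 11.1 or 17.9 CPM.

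Promoters are shown for 3 genes whose class patterns differ: Tgfb1, found in every class, Tgfb2, found mainly in fibroblasts, and Tgfbi, highest in macrophages. Each line gives the 250 bases before the start site from RefSeq, build GRCm38.p6, 5′ to 3′ on the gene's strand. Capitals mark every match, on either strand, to the TATA box TATAAA, the GC box GGGCGG, the cAMP response element TGACGTCA and the E-box CACGTG; no matches overlapped.
Tgfb1, chr7:25686752-25687001, plus strand: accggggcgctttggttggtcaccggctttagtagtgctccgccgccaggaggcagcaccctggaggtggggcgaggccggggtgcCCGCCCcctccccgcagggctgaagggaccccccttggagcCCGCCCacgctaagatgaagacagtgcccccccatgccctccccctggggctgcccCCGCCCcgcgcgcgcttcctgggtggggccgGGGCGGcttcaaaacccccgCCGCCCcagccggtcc
Tgfb2, chr1:186705990-186706239, minus strand: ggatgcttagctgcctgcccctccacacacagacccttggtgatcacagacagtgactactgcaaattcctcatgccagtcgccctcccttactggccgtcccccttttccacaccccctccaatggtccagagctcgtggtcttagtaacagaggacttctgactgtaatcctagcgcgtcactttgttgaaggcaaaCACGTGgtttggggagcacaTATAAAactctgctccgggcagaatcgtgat
Tgfbi, chr13:56609336-56609585, plus strand: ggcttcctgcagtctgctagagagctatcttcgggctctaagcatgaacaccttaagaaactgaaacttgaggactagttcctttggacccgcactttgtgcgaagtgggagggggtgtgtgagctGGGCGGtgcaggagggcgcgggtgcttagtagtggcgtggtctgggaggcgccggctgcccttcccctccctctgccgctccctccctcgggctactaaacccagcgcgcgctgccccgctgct
The Tgfb1 window was 75.2% G and C with 5 GC boxes and no TATAAA. The Tgfb2 window was 53.6% G and C and held 1 TATAAA and 1 CACGTG. The Tgfbi window was 62.4% G and C with 1 GC box. Over all 32851 windows of this length the median was 52.4%, and 12.4% held TATAAA, 32.7% the GC box, 1.55% the cAMP response element and 6.02% the E-box. Windows were found for 7 of the 9 genes, and that of Ltbp1 (first of its 2 windows) held the 1 cAMP response element among them. Tgfb3 and Tgfbr3 are named only. A match describes letters, not a bound site.

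**Figure D1:**
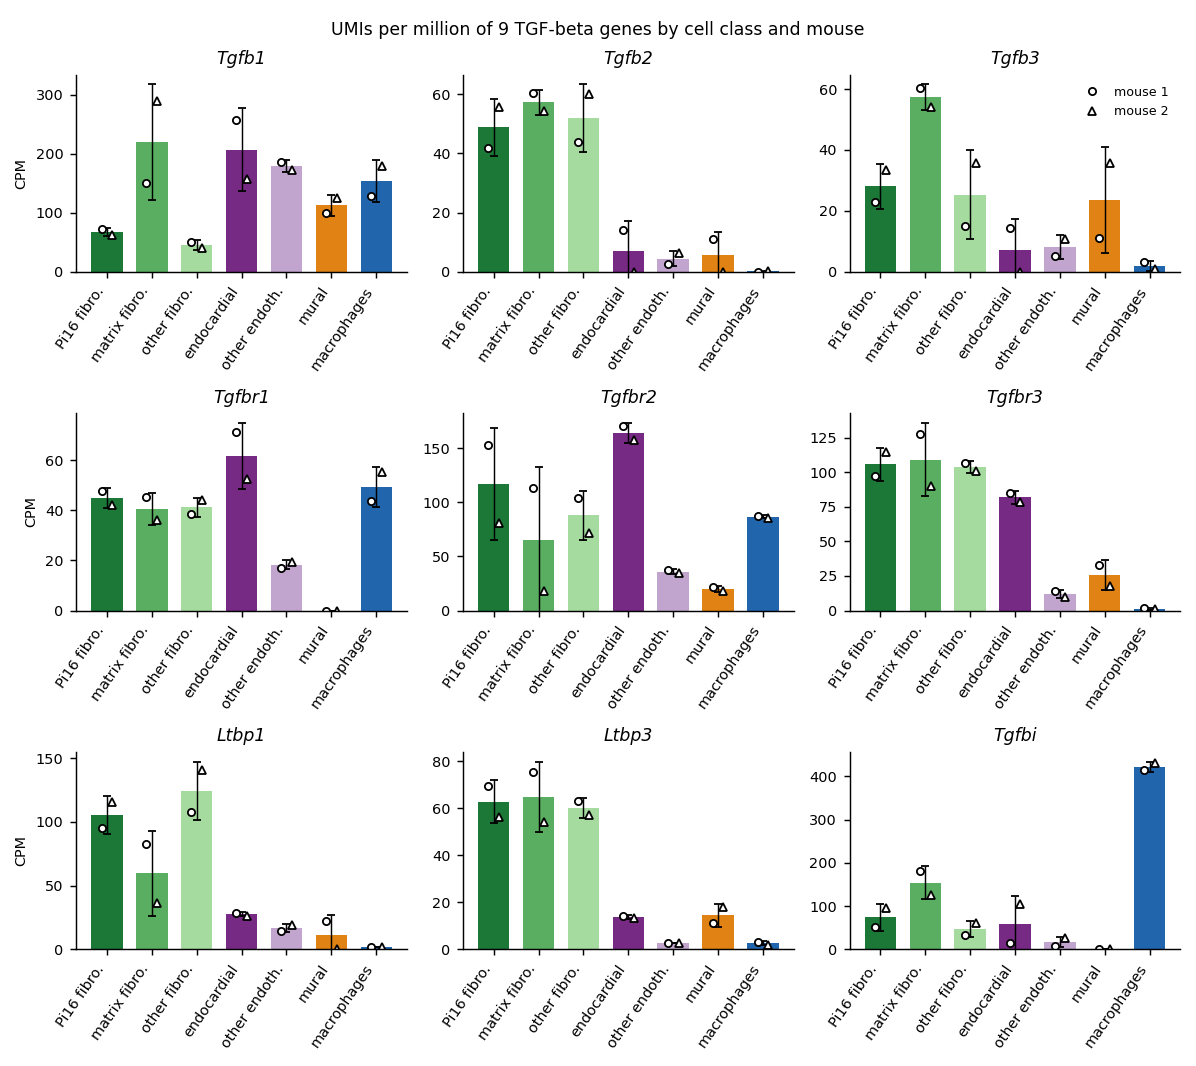
Level of each of the 9 genes in CPM (y axis, linear, from 0) in 7 cell groups (x axis). Bars are means of the 2 mice with SD, circles mouse 1 and triangles mouse 2; matrix fibroblasts are shown with or without Pi16 (34 and 13 cells). Tgfbi stands at 414 and 430 CPM in macrophages, Tgfb2, Ltbp1, Ltbp3 and Tgfbr3 are high in fibroblasts, and Tgfb1 is present in every group.

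Between the large classes, most members differed. The summed UMIs of each class in each mouse were compared with edgeR's quasi-likelihood F test and mouse as a block. A member was called where its p, adjusted by Benjamini-Hochberg over every gene tested, was under 0.05 and its log2 fold change was 1 or more in either direction. In fibroblasts over endothelium all 9 members were called, 8 higher and 1 lower, where 30.8% of all genes tested were called (16.4% higher and 14.4% lower); their median log2 fold change was 1.79, against 0.03 over all genes. In fibroblasts over macrophages 7 were called, 5 higher and 2 lower, where 37.7% of all genes were called (19.9% higher and 17.8% lower), with a median of 3.27 against 0.02. In endothelium over macrophages 7 were called, 4 higher and 3 lower, where 33.2% of all genes were called (16.7% higher and 16.5% lower), with a median of -0.16 against -0.02. The 2 animals are the replicates, so these p-values rest on the spread between 2 mice and on a spread shared across genes. The fit scaled libraries by trimmed means (TMM); with library totals alone Tgfb1 in fibroblasts over macrophages was -1.34 in place of -1.70, and ratios of pooled counts, which use library totals, are given beside the fits.

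**Figure D2:**
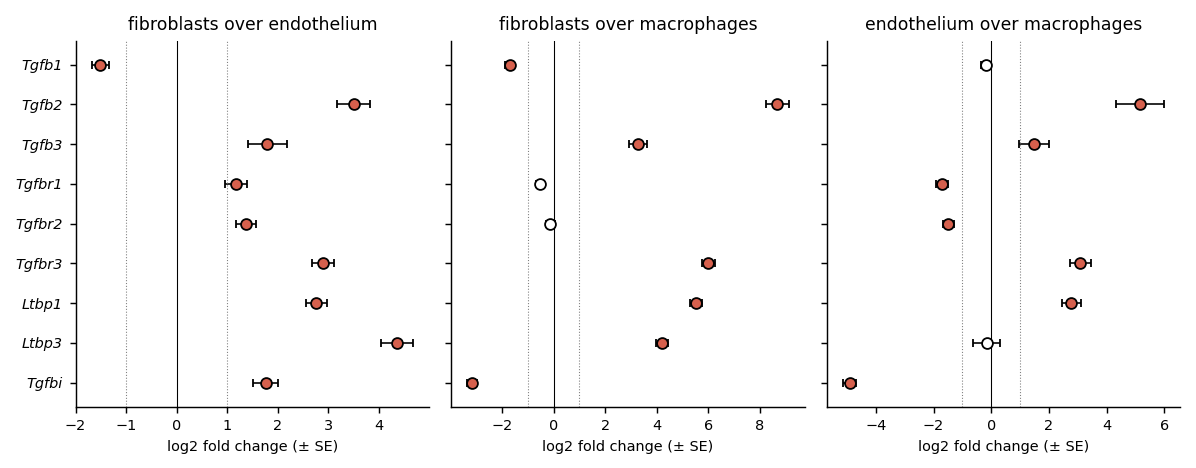
Log2 fold change with its SE (x axis) of each of the 9 genes (y axis) in 3 comparisons from the edgeR fit; filled points were called, open points were not, and dotted lines mark the fold floor of 1. Tgfb1 lies left of 0 in the first and second panels while Tgfb2 lies right of 0 in all 3, up to 8.66 in fibroblasts over macrophages.

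Tgfb1, the ligand made by many cell types, was lowest in fibroblasts. It had 65.7 CPM in mouse 1 and 54.2 CPM in mouse 2 in fibroblasts, against 189 and 171 CPM in endothelium and 129 and 179 CPM in macrophages. The fibroblast values lay below those of the other 2 classes in each mouse. The log2 fold change was -1.51 ± 0.17 (SE) over endothelium (edgeR, adjusted p = 2.00e-08) and -1.70 ± 0.17 over macrophages (adjusted p = 6.23e-10). By pooled counts it was 2.92-fold lower in fibroblasts than in endothelium (95% counting interval 2.60 to 3.28) and 2.44-fold lower than in macrophages (2.22 to 2.69). Endothelium and macrophages, the neighbours at the top, overlapped and were not called apart, at -0.19 ± 0.16 (adjusted p = 0.359); with library totals alone the sign turned to 0.23 (adjusted p = 0.220).

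Tgfb2, a ligand best known from heart and vessel development, was the most fibroblast-weighted ligand. Fibroblasts had 43.2 and 57.9 CPM (228 and 191 UMIs), against 3.15 and 5.95 CPM in endothelium (5 and 12 UMIs) and 0 and 1 UMI in all macrophages of each mouse. Fibroblasts held 91.9% and 83.4% of all Tgfb2 UMIs of kept cells, and 29.3% and 24.5% of all UMIs. The Dcn-positive endocardial cells described below were left out of these classes. On few UMIs, their Tgfb2 level stood above fibroblasts in mouse 1 and close to fibroblasts in mouse 2. The log2 fold change was 3.50 ± 0.32 over endothelium (edgeR, adjusted p = 3.06e-10), a pooled ratio of 10.3 (6.39 to 17.9). Over macrophages the pooled ratio was 772, with a counting interval of 138 to 30575 that reflects the single macrophage UMI. Endothelium over macrophages was called too (5.17 ± 0.84, adjusted p = 6.57e-06), on 17 UMIs against 1. In both of these classes the share of cells with Tgfb2 lay at or below the gauge of free RNA given below. That gauge is not scaled to the level of each gene in fibroblasts.

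Tgfb3, the third ligand, was also highest in fibroblasts among these 3 classes. Fibroblasts had 20.8 and 34.8 CPM, against 5.68 and 10.4 CPM in endothelium and 3.14 and 0.760 CPM in macrophages. The groups did not overlap. The log2 fold change was 1.79 ± 0.39 in fibroblasts over endothelium (edgeR, adjusted p = 0.000328) and 3.27 ± 0.36 over macrophages (adjusted p = 6.27e-09). Endothelium over macrophages was 1.48 ± 0.51 (adjusted p = 0.0168), and this call was lost with DESeq2 (1.53, adjusted p = 0.114) and without the mouse block (1.55, adjusted p = 0.0555). The macrophage level differed between mice, with 29 UMIs in mouse 1 and 5 in mouse 2.

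The mix of ligand RNA differed between classes. Tgfb1 made up 50.7% (95% exact interval 46.8 to 54.5) and 36.9% (32.6 to 41.4) of the UMIs of the 3 ligands in fibroblasts, 95.5% (92.6 to 97.5) and 91.3% (88.0 to 93.9) in endothelium, and 97.6% (96.6 to 98.4) and 99.5% (98.9 to 99.8) in macrophages. Tgfb2 made up 33.3% and 39.4% of ligand UMIs in fibroblasts, against 1.59% and 3.17% in endothelium. These shares count captured 3' ends, which do not scale with transcript length, but capture can differ between genes; a share is therefore compared between classes and not between ligands. Intervals cover counting error only.

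**Figure D3:**
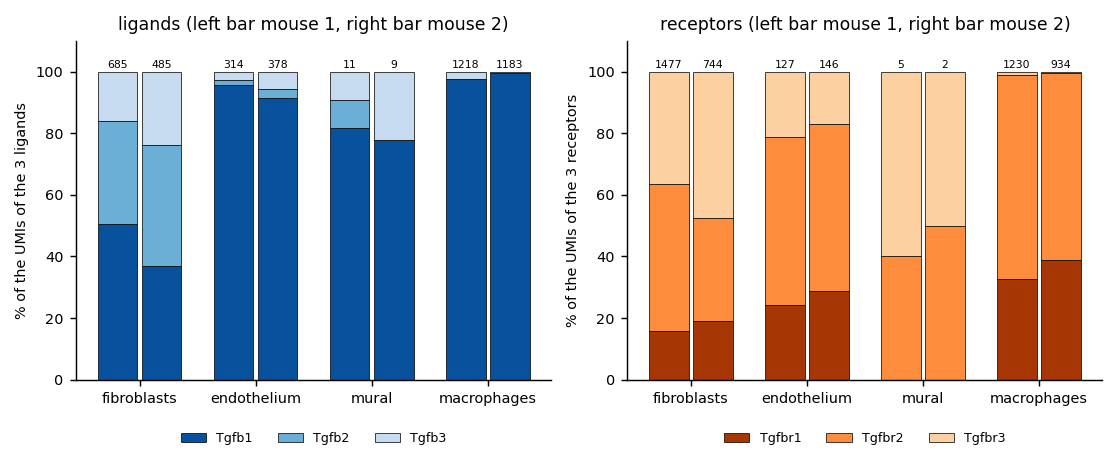
Share in percent (y axis, 0 to 100) of the UMIs of the 3 ligands (left panel) and the 3 receptors (right panel) taken by each gene in 4 classes; left bars are mouse 1, right bars mouse 2, and numbers above the bars are the UMIs counted. Tgfb2 and Tgfb3 take a visible share of ligand UMIs in fibroblasts, and Tgfbr3 is nearly missing from the receptor UMIs of macrophages; mural bars rest on 2 to 11 UMIs.

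Both latent-binding proteins were fibroblast genes among the 3 large classes. Ltbp1, which tethers latent TGF-beta to fibrillin-rich matrix, had 99.6 and 127 CPM in fibroblasts, against 15.1 and 19.3 CPM in endothelium and 1.73 and 1.98 CPM in macrophages. Ltbp3, which binds latent ligand in the same way, had 67.0 and 56.7 CPM in fibroblasts, against 3.15 and 2.97 CPM in endothelium and 3.14 and 1.98 CPM in macrophages. Fibroblasts were the highest of these 3 classes for both genes in each mouse. Left out of these classes were the Dcn-positive endocardial cells described below. In them, on few UMIs, Ltbp1 stood below fibroblasts in mouse 1 and above them in mouse 2, and Ltbp3 stood below them in both. In fibroblasts over endothelium the log2 fold change was 2.76 ± 0.21 for Ltbp1 (edgeR, adjusted p = 5.03e-12) and 4.36 ± 0.32 for Ltbp3 (adjusted p = 1.85e-12), and over macrophages 5.54 ± 0.23 and 4.20 ± 0.23 (adjusted p = 3.54e-18 and 2.65e-15). The pooled ratio of Ltbp3 over endothelium was 20.7 (11.4 to 41.6). Ltbp3 lay below the level of the filter on low counts in both mice in endothelium and macrophages. It reached that level in fibroblasts, where it is high, and in the mural libraries on 1 UMI each. Its calls over these 2 large classes are therefore descriptions. Below fibroblasts the genes parted: Ltbp1 was called in endothelium over macrophages (2.77 ± 0.32, adjusted p = 2.59e-08), whereas Ltbp3 was not (-0.16 ± 0.48, adjusted p = 0.809) and its sign changed with the scaling (0.25 with library totals alone).

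The receptors did not share 1 pattern. Tgfbr3, betaglycan, had 102 and 107 CPM in fibroblasts, against 17.0 and 12.4 CPM in endothelium and 1.62 and 0.760 CPM in macrophages. The groups did not overlap in either mouse. Its log2 fold change was 2.90 ± 0.22 in fibroblasts over endothelium (edgeR, adjusted p = 5.46e-12), 5.99 ± 0.25 over macrophages (adjusted p = 3.73e-18) and 3.09 ± 0.37 in endothelium over macrophages (adjusted p = 3.44e-08). By pooled counts fibroblasts had 82.2 times the macrophage level (52.9 to 135).

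Tgfbr1 and Tgfbr2, the kinase receptors, were shared by fibroblasts and macrophages and lower in endothelium. Tgfbr1 had 44.1 and 43.0 CPM in fibroblasts, against 19.6 and 20.8 CPM in endothelium and 43.7 and 55.2 CPM in macrophages. Tgfbr2 had 134 and 75.1 CPM in fibroblasts, against 43.5 and 39.1 CPM in endothelium and 87.8 and 86.0 CPM in macrophages. Fibroblast and macrophage values overlapped for both genes. Fibroblasts over endothelium gave log2 fold changes of 1.18 ± 0.22 for Tgfbr1 (edgeR, adjusted p = 5.54e-05) and 1.37 ± 0.20 for Tgfbr2 (adjusted p = 1.24e-06), and endothelium over macrophages gave -1.70 ± 0.21 and -1.49 ± 0.19 (adjusted p = 7.14e-08 and 1.79e-07). Tgfbr1 in fibroblasts over endothelium lay below the fold floor, at 0.85, when cells in several gates were kept. Fibroblasts over macrophages met no call: Tgfbr1 was -0.53 ± 0.16 (adjusted p = 0.00727, under the fold floor) and Tgfbr2 -0.12 ± 0.16 (adjusted p = 0.541). Tgfbr2 turned to 0.24 with library totals alone (adjusted p = 0.203). In macrophages Tgfbr3 made up 1.22% and 0.535% of the UMIs of the 3 receptors, against 36.4% and 47.6% in fibroblasts.

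Tgfbi, the secreted matrix protein named for its induction by TGF-beta, was highest in macrophages among the 3 large classes. Fibroblasts had 48.3 and 77.9 CPM, endothelium 8.83 and 28.7 CPM, and macrophages 414 and 430 CPM. Macrophages held 83.8% and 84.6% of all its UMIs in kept cells, and 51.2% and 48.8% of all UMIs. Cells that passed no gate held 6.07% and 4.48% of its UMIs, and 5.98% and 8.56% of all UMIs. The log2 fold change was -3.16 ± 0.19 in fibroblasts over macrophages (edgeR, adjusted p = 3.04e-14), 7.05-fold lower by pooled counts (6.44 to 7.73), and -4.92 ± 0.23 in endothelium over macrophages (adjusted p = 2.27e-16). Fibroblasts over endothelium was 1.76 ± 0.25 (adjusted p = 1.03e-06). That call fell to 0.21 (adjusted p = 0.608) when cells in several gates were kept. Of those cells 102 passed the fibroblast and endothelial gates, 103 the endothelial and macrophage gates and 29 the fibroblast and macrophage gates, and the part of each was not tested. The fold change was 2.21 without the 10 and 31 lymphatic-marker cells of the endothelium, in which Tgfbi stood at 241 and 298 CPM on 4 and 18 UMIs.

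Shares of cells with a UMI were read at full depth and at a fixed depth. In macrophages Tgfbi was found in 64.1% of cells (62.4 to 65.8, exact 95% interval) and 62.9% (60.9 to 64.8); at a fixed 1000 UMIs per cell it was found in 32.3% and 33.0%. At that depth Tgfbi was found in 3.90% and 6.57% of fibroblasts. Tgfbr2 was found in 30.3% and 17.1% of fibroblasts, 6.89% and 5.75% of endothelial cells and 22.5% and 19.8% of macrophages, and after thinning in 13.5% and 6.97%, 4.90% and 4.16%, and 7.76% and 8.39%. Thinning left out 13 and 40 fibroblasts, 51 and 186 endothelial cells and 9 and 48 macrophages. As a gauge of free RNA, the fibroblast gene Col1a1 had a UMI in 1.17% and 1.23% of macrophages and 0.538% and 0.709% of endothelial cells. Macrophage shares of Tgfb2, Tgfb3, Tgfbr3, Ltbp1 and Ltbp3 ran up to 0.934% and lay below that gauge, and are not read as expression. The gauge is not scaled to the level of each gene in fibroblasts. In mouse 1 Tgfb2 and Tgfb3 had 228 and 110 UMIs in fibroblasts, and 0 and 29 in macrophages. In mouse 2 they had 191 and 115 UMIs in fibroblasts, and 1 and 5 in macrophages. The source of the macrophage UMIs was not tested. In endothelium Tgfb2 (0.431% and 0.709%) and Ltbp3 (0.538% and 0.473%) lay at or below the Col1a1 gauge. Endothelial Tgfb3, Tgfbr1, Tgfbr2, Tgfbr3 and Ltbp1 lay above it in both mice. Endothelial Tgfbi, at 1.29% and 3.55%, is set beside the macrophage gene Csf1r, which had a UMI in 2.80% and 3.31% of endothelial cells.

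**Figure D4:**
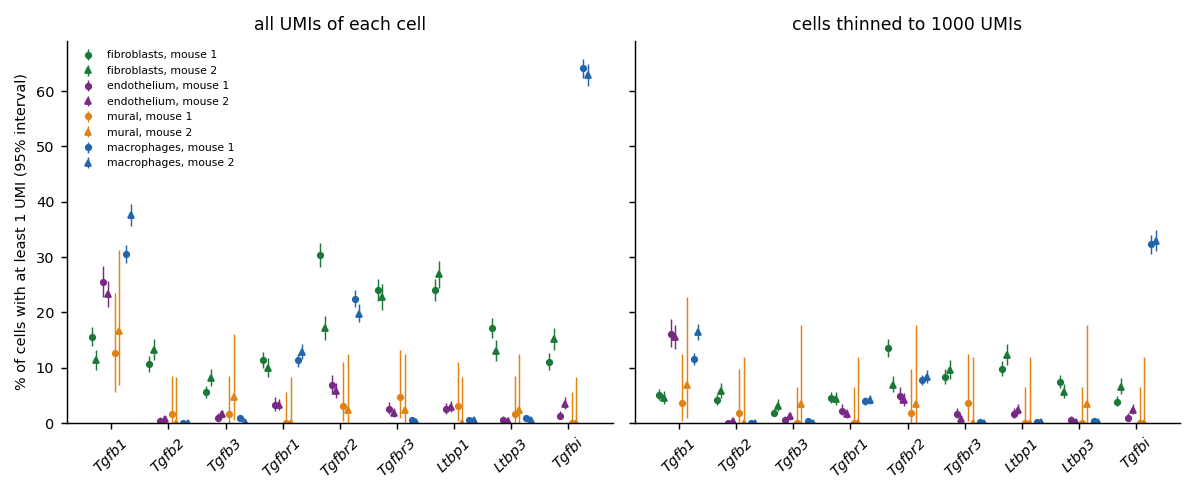
Percent of cells with at least 1 UMI (y axis) of each of the 9 genes (x axis) in the 4 main classes, with exact 95% intervals, at full depth (left) and after thinning every cell to 1000 UMIs (right); circles are mouse 1 and triangles mouse 2. Thinning lowers macrophage Tgfbi to 32.3% and 33.0%, still the highest of all points, and mural intervals are wide because 63 and 42 cells were counted.

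Mural values rest on few molecules. The 105 cells gave 9 and 7 UMIs of Tgfb1 (99.8 and 125 CPM), 1 and 2 of Tgfb3, 3 and 1 of Tgfbr3, 2 and 1 of Tgfbr2, 2 and 0 of Ltbp1, 1 and 1 of Ltbp3, 1 and 0 of Tgfb2 and none of Tgfbr1 or Tgfbi. In fibroblasts over mural cells 7 members were called higher and 0 lower by edgeR, where 11.1% of all genes were called (7.16% higher and 3.99% lower), but the median of all genes was also shifted, to 0.40. By pooled counts fibroblasts had 8.04 times the mural level of Ltbp1 (2.22 to 66.5), 5.41 times that of Tgfbr2 (1.85 to 26.3) and 3.79 times that of Tgfbr3 (1.48 to 13.96). Tgfbr1 was at least 2.13-fold and Tgfbi at least 2.90-fold higher in fibroblasts, with the mural count of 0 set to 3 UMIs over both mice. Keeping cells in several gates left 4 of the 7 calls, where 13.6% of all genes were called. Tgfb2 and Ltbp3 were not called with DESeq2 (adjusted p = 0.186 and 0.114) or library totals alone (adjusted p = 0.0761 and 0.0606). Tgfb1 and Tgfb3 were not called (-0.39 ± 0.40 and 0.84 ± 0.98, adjusted p = 0.627 and 0.677).

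Mural cells were also set against the other 2 classes. In endothelium over mural cells 1 member was called, where 11.8% of all genes were called (7.25% higher and 4.53% lower) with their median at 0.39: Tgfb1, at 1.12 ± 0.36 (edgeR, adjusted p = 0.0353). With library totals alone this was 0.70 (adjusted p = 0.283) and the pooled ratio was 1.63 (0.998 to 2.88). In mural cells over macrophages 5 members were called, 1 higher and 4 lower, where 22.5% of all genes were called (9.08% higher and 13.4% lower) with their median at -0.41. Tgfbr3 was higher (21.7 times by pooled counts, 5.38 to 64.7; adjusted p = 0.00872), and Tgfbr2 was 4.24-fold lower (1.45 to 20.6; adjusted p = 0.000430). Tgfbi was at least 20.5-fold and Tgfbr1 at least 2.36-fold lower in mural cells. The fourth lower call, Tgfb1 (-1.31 ± 0.35, adjusted p = 0.00568), became -0.47 (adjusted p = 0.411) with library totals alone, so the order of Tgfb1 among mural cells and its neighbours depended on the scaling. With cells in several gates kept it was -0.89, under the fold floor, and Ltbp1 was called higher (2.36, adjusted p = 0.0110). Tgfb2, with 1 UMI in each class, was not called (5.37, adjusted p = 0.0975) but passed with DESeq2 (6.01, adjusted p = 0.0195), with cells in several gates kept (6.73, adjusted p = 0.000120) and with doubled gates (6.35, adjusted p = 0.00926).

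Within fibroblasts, the Pi16 group, a gate for adventitial-type fibroblasts that here took 1024 and 546 cells, differed little from the 802 and 744 other fibroblasts. No member was called by edgeR, where 1.99% of all genes were called (0.952% higher and 1.04% lower). Without the fold floor 3 members, all below it, had an adjusted p under 0.05, where 5.94% of all genes did. DESeq2 called 0 members and 0.496% of all genes. Tgfbi had 52.1 and 95.3 CPM in Pi16 fibroblasts, against 33.5 and 60.0 CPM in other fibroblasts (log2 fold change 0.65 ± 0.17, adjusted p = 0.00231). Tgfb1 had 71.5 and 62.0 CPM, against 51.0 and 39.2 CPM (0.55 ± 0.17, adjusted p = 0.0177). Tgfbr2 had 153 and 80.6 CPM in Pi16 fibroblasts, against 104 and 71.9 CPM in other fibroblasts (0.43 ± 0.13, adjusted p = 0.0223). The Pi16 value was the higher one within each mouse for all 3, while the groups overlapped across mice for Tgfbi and Tgfbr2. Tgfb2, Tgfb3, Tgfbr1, Tgfbr3, Ltbp1 and Ltbp3 had log2 fold changes between -0.23 and 0.22. Median depth was 2996.5 and 2843 UMIs per cell in Pi16 fibroblasts, against 2419.5 and 2254.5 in other fibroblasts. The part of depth in passing the Pi16 gate was not tested.

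Fibroblasts past the matrix gate alone numbered 4 and 1. With them no member was called over other fibroblasts (0.983% of all genes were, 0.0423% higher and 0.941% lower). None was called in Pi16 over matrix fibroblasts (1% of all genes were, 0.973% higher and 0.0317% lower). DESeq2 called no member either, and 0.148% and 0.127% of all genes in these 2 comparisons. Taken with or without Pi16, a definition chosen after the 4 and 1 cells were seen, matrix fibroblasts numbered 34 and 13. Tgfb1 then had 151 and 289 CPM (20 and 16 UMIs), against 51.0 and 39.2 CPM in other fibroblasts, a log2 fold change of 1.88 ± 0.33 (edgeR, adjusted p = 1.02e-06). Tgfbi had 181 and 127 CPM (24 and 7 UMIs), against 33.5 and 60.0 CPM, a log2 fold change of 1.79 ± 0.35 (adjusted p = 1.99e-05). These were the 2 members called, where 2.75% of all genes were (1.05% higher and 1.7% lower, with a median of -0.19), and the groups did not overlap for either. In Pi16 over matrix fibroblasts the same 2 members were called lower, at -1.33 ± 0.31 and -1.15 ± 0.32 (adjusted p = 0.00173 and 0.0260), where 1.06% of all genes were called (0.714% higher and 0.347% lower). Both comparisons share the matrix libraries. Matrix fibroblasts had a median of 3586.5 and 4122 UMIs per cell, against 2419.5 and 2254.5 in other fibroblasts, and the part of depth in passing the gate was not tested.

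Within endothelium, the kinase receptor Tgfbr2 and betaglycan were higher in endocardial cells, which line the heart chambers. Tgfbr2 had 171 and 158 CPM in endocardial cells (12 UMIs in each mouse), against 37.6 and 34.5 CPM in other endothelium. Tgfbr3 had 85.4 and 78.7 CPM (6 UMIs in each mouse), against 13.9 and 9.78 CPM. The groups stood apart in both mice. The log2 fold changes were 1.99 ± 0.44 and 2.60 ± 0.63 (edgeR, adjusted p = 0.000138 and 0.000821). These were the 2 calls among the 6 members that passed the filter on low counts. Of all genes 7.68% were called (3.57% higher and 4.11% lower, with a median of -0.14). In other endothelium Tgfbr3 reached the level of that filter in mouse 1 only. It was thus tested through the endocardial cells, where it is high, and its call is a description. Tgfbr1, at 71.2 and 52.5 CPM (5 and 4 UMIs) against 17.2 and 19.6 CPM, was not called (1.54 ± 0.71, adjusted p = 0.192). Tgfb1 was 256 and 158 CPM against 186 and 171 CPM (0.01 ± 0.29, adjusted p = 0.996). The Tgfbr3 call was lost with DESeq2 (2.64, adjusted p = 0.0984). Tgfbi was not called (1.61, adjusted p = 0.172), at 14.2 and 105 CPM in endocardial cells (1 and 8 UMIs) against 8.58 and 25.7 CPM in other endothelium. It was called without the lymphatic-marker cells (2.199, adjusted p = 0.0150) and with doubled gates (2.63, adjusted p = 2.05e-05). In the main fit Tgfbi reached the filter level in other endothelium in mouse 2 only, and these Tgfbi calls are descriptions too.

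The endocardial group was 40 cells in each mouse, and not all markers of the label were present. Vwf stood at 2562 and 2310 CPM, against 108 and 77.2 CPM in other endothelium, and Tmem108 and Plvap were also above it, but Fst was at 0 and Nrg1 had 3 and 1 UMIs. Another 25 and 36 cells passed the endocardial gate and the Dcn gate and had been left out; in these Fst had 11 and 10 UMIs and Nrg1 7 and 18, the fibroblast markers Pdgfra and Tcf21 were at 0, and Col1a1 had 3 UMIs in each mouse. Tgfb2 stood at 87.3 and 58.8 CPM in those Dcn-positive cells, Ltbp1 at 72.8 and 147 CPM, Ltbp3 at 29.1 and 39.2 CPM and Tgfbi at 146 and 137 CPM, each above other endothelium in both mice. Against fibroblasts, Tgfb2 was higher in mouse 1 and close in mouse 2. Ltbp1 was below its fibroblast level in mouse 1 and above it in mouse 2, Ltbp3 was below it in both, and Tgfbi was above it in both. With them counted as endocardial, a choice made after seeing the data, 8 members passed the filter on low counts, Tgfb2 and Ltbp3 only because these cells were added. Their count is therefore a description: 6 were called higher over other endothelium, where 13.3% of all genes were called (6.4% higher and 6.89% lower). The 6 were Tgfb2 (3.03 ± 0.62), Ltbp3 (3.12 ± 0.75), Tgfbr3 (2.77 ± 0.45), Tgfbi (2.44 ± 0.39), Ltbp1 (2.04 ± 0.43) and Tgfbr2 (1.75 ± 0.31), with adjusted p between 4.95e-08 and 0.000604 in edgeR. Tgfb1 was -0.33 ± 0.23 and Tgfbr1 0.94 ± 0.54. Summed fibroblast markers were 931 and 1284 CPM in the Dcn-positive endocardial cells, against 348 and 335 CPM in other endothelium and 34116 and 43163 CPM in fibroblasts.

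**Figure D5:**
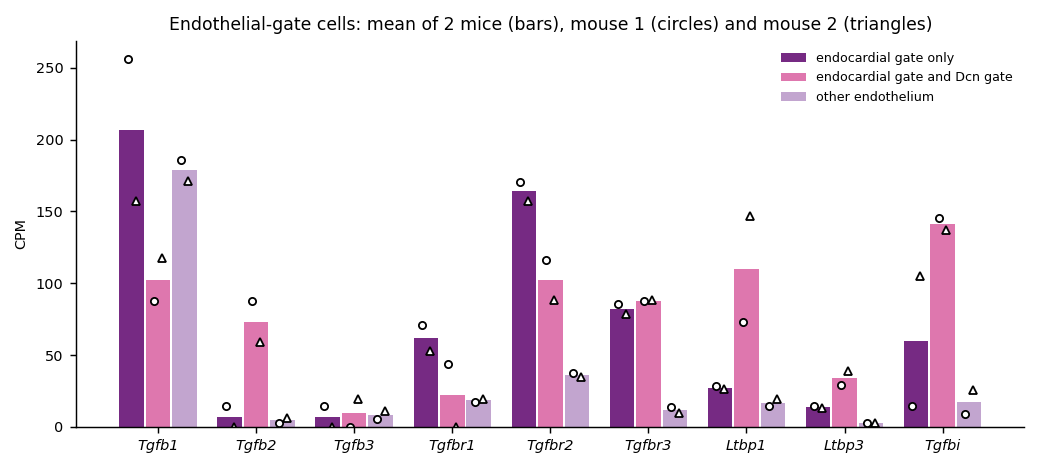
CPM (y axis, linear, from 0) of the 9 genes in cells past the endocardial gate only (40 cells per mouse), cells past the endocardial and Dcn gates (25 and 36), and other endothelium (889 and 1229). Bars are means of 2 mice, circles mouse 1 and triangles mouse 2. Tgfbr2 and Tgfbr3 exceed other endothelium in both endocardial groups, while Tgfb2 and Ltbp1 do so mainly in the Dcn-positive cells.

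The 2 mice differed for some members, a description with 1 library on each side. Tgfbr2 in Pi16 fibroblasts was 153 CPM in mouse 1 and 80.6 CPM in mouse 2, a ratio of 1.90 (counting interval 1.56 to 2.33), and in other fibroblasts the ratio was 1.44 (1.15 to 1.82). Over all fibroblasts the mouse 1 level was lower for Tgfb3 (ratio 0.598, 0.456 to 0.783), Tgfbi (0.620, 0.519 to 0.740), Tgfb2 (0.746) and Ltbp1 (0.784), and higher for Tgfb1 (1.21, 1.01 to 1.46). In macrophages Tgfb1 was lower in mouse 1 (0.719, 0.663 to 0.781). Endothelial Tgfbi was lower in mouse 1 too (0.307, 0.158 to 0.558), and without the lymphatic-marker cells the ratio was 0.312 (0.139 to 0.635), on 10 and 40 UMIs. Every call between fibroblasts, endothelium and macrophages had the same direction in both mice, with Tgfb2 at 0 UMIs in the macrophages of mouse 1.

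Among 41 other genes of the pathway, taken from a list of co-receptors, SMADs and their regulators, latent storage and activation genes and induced targets, 37 were tested in the main classes. In fibroblasts over endothelium 15 were called higher and 4 lower, where 16.4% and 14.4% of all genes were, with 9 of the 14 tested storage and activation genes among the higher ones. Fbn1, the fibrillin that Ltbp1 binds, had 210 and 274 CPM in fibroblasts, against 18.3 and 19.3 CPM in endothelium (log2 fold change 3.73). Thbs1, an activator of latent ligand, had 189 and 59.4 CPM, against 11.4 and 3.47 CPM (4.12). Itgb5, an integrin subunit that can activate latent ligand, and the protease Htra1 were higher as well (3.62 and 3.43). The lower ones included Eng, the endothelial co-receptor endoglin, with 113 and 120 CPM in fibroblasts against 654 and 669 CPM in endothelium (-2.45), and the inhibitory Smad7, with 41.6 and 52.4 CPM against 148 and 154 CPM (-1.63). Cdkn1a was also lower (-1.84).

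Against macrophages, 20 of the 37 were higher and 2 lower in fibroblasts (19.9% and 17.8% of all genes), and 16 were higher and 7 lower in endothelium (16.7% and 16.5%). Ltbp4, another latent-binding protein, had 869 and 751 CPM in fibroblasts and 366 and 342 CPM in endothelium, against 17.0 and 14.4 CPM in macrophages (5.32 and 4.08). Nrros, which holds latent TGF-beta on myeloid cells, had 7.19 and 8.79 CPM in fibroblasts and 17.7 and 28.2 CPM in endothelium, against 272 and 285 CPM in macrophages (-5.49 and -4.01). Smad7 was 4.98 and Eng 4.29 in endothelium over macrophages. Fibroblasts over mural cells had 8 higher and 0 lower (7.16% and 3.99% of all genes), endothelium over mural cells 4 and 7 (7.25% and 4.53%), and mural cells over macrophages 11 and 2 (9.08% and 13.4%). Itgb5 and Htra1 stood at 166 and 125 CPM and at 177 and 304 CPM in mural cells, above endothelium (-2.72 and -2.82 in endothelium over mural cells).

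Within classes, 0 of 36 tested were called in Pi16 over other fibroblasts, against 1.99% of all genes. In matrix fibroblasts with or without Pi16 over other fibroblasts 4 of 37 were higher and 2 lower, against 1.05% and 1.7% of all genes. Higher were Ctgf (2.64), the TGF-beta target also used as a matrix fibroblast marker, Fbn1 (1.54), Pmepa1 (1.26) and Ltbp2 (4.39). Htra1 (-3.12) and Acvrl1 (-1.20) were lower. Ltbp2 passed the filter on low counts only with this wider gate, chosen after the data were seen, so the count of higher genes is a description. In endocardial over other endothelium 5 of 30 were higher and 1 lower, against 3.57% and 4.11% of all genes. Ltbp4 had 954 and 1089 CPM in endocardial cells, against 339 and 313 CPM in other endothelium (1.46), and the decoy receptor Bambi 85.4 and 105 CPM, against 15.2 and 28.8 CPM (1.92). Lrrc32, which docks latent ligand at the cell surface, was 1.69, and Cdkn1a was lower (-1.51). Ctgf was 4.24, at 313 and 52.5 CPM in endocardial cells against 7.92 and 7.21 CPM in other endothelium. Ctgf passed the filter on low counts only through the endocardial cells, so its call and the count of 5 higher genes are descriptions.

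The genes most like each member were taken as the 3 with the highest Pearson correlation of log2(CPM + 1) over 14 summed libraries, which share 2 mice and differ in depth, among 5776 genes. Ltbp3 ran with Col5a2, Mxra8 and Nnmt (r = 0.960, 0.958 and 0.939), and Ltbp1 with Thsd7a, Prelp and Fam114a1 (0.982, 0.975 and 0.963). Tgfbr3 ran with Zfp9, Sh3d19 and Col4a4 (0.964, 0.945 and 0.940), and Tgfb3 with Armcx2, Ddr2 and Fxyd1 (0.927, 0.921 and 0.917). Tgfb1 ran with Tagln2, Klf6 and Cnn2 (0.927, 0.894 and 0.877), and Tgfbi with Rpl39, Cd83 and Gm10073 (0.952, 0.952 and 0.924). Tgfb2 ran with Stt3a, Ak1 and Fbxo31 (0.938, 0.934 and 0.923), Tgfbr1 with Hspb11, Arrb1 and B4galt5 (0.990, 0.979 and 0.974) and Tgfbr2 with Scarb2, Cd164 and Rpl13-ps3 (0.952, 0.946 and 0.944). Without the 2 thin matrix libraries these values were 0.775 to 0.984 over 12 libraries. They are descriptions with no test.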

How the data were processed

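Per the labels' protocols, libraries were made with version 2 of a droplet 3' kit; the submitters' processing notes name FastQC and Cell Ranger 2.2.0 with build mm10. The deposited values are raw UMI counts per gene and barcode (7732 and 6367 barcodes, 21355383 and 15174548 UMIs), with no normalization by the authors. The libraries share 65 barcode sequences. Barcodes under 500 UMIs or 300 genes, or over 10% mitochondrial UMIs, were dropped (719 and 432). Scrublet in scanpy 1.11.5 removed 405 and 248 more as doublets. Sums of counts by class and mouse were analysed with edgeR 4.0.16 (R 4.3.3): quasi-likelihood F tests, TMM scaling, the filterByExpr filter and Benjamini-Hochberg adjustment. Mouse was a block, as the 2 animals supplied all classes. Residual degrees of freedom were 3 for the main classes, 2 for the fibroblast groups and 1 for endothelium. DESeq2 1.42.0 was an alternative. The scripts were tested on simulated data.

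The members, gates and lists were chosen with earlier results of these data known. Named genes were all 9 members and up to 4 called list genes per comparison and direction with the largest change and at least 50 CPM in both mice on the higher side; Ltbp2 was named in addition, after its values were seen, to complete a count. SE were derived from the F statistic. Count ratios have exact binomial and cell shares exact Clopper-Pearson 95% intervals, a count of 0 was set to 3 counts, and these cover counting error only. Promoters are from RefSeq.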

Additional observations from a re-analysis of the deposited data

How the results depend on the processing

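All 7 calls in fibroblasts over macrophages and 7 of 9 in fibroblasts over endothelium were kept under every alternative run for them with a test. The pairing by mouse is by animal. With no replicate block 0 members were called in endothelium over mural cells, where 9.63% of all genes were called. The count was also 0 with DESeq2 (10.3% of all genes), median-ratio factors (10.9%) and cells in several gates kept (2.99%). Library totals alone (9.82%) and Dcn-positive endocardial cells kept (11%) gave 0 too, while doubled gates gave 2 (11.4%). Keeping cells in several gates gave 4 calls in fibroblasts over mural cells (13.6% of all genes) and 2 in matrix over other fibroblasts (2.86%). It gave 1 in Pi16 over matrix fibroblasts (1.15%) and 5 in endocardial over other endothelium (11.3%). The wider matrix gate gave 2 calls in matrix over other fibroblasts (2.75% of all genes) and 2 in Pi16 over matrix fibroblasts (1.06%). With no fold floor 3 were called in Pi16 over other fibroblasts (5.94% of all genes). In endocardial over other endothelium DESeq2 gave 1 call (2.88% of all genes) and the kept Dcn-positive cells 6 (13.3%). Doubled gates (9.1%) or removal of lymphatic-marker cells (7.87%) gave 3, with Tgfbi added. In mural cells over macrophages the count was 4 to 6, where 15.4% to 24.5% of all genes were called. Without the mouse 1 or mouse 2 library no test and no count of calls could be had. The fit of the fibroblast groups could not be run with doubled gates, which left 1 mouse with no matrix cells.

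Log2 values that changed sign were not calls. Tgfbr3 in Pi16 over other fibroblasts, 0.00 in the fit, was -0.0146 with DESeq2, -0.0430 with median-ratio factors, -0.00235 with doublets kept, -0.000401 at 1000 or more UMIs per cell and -0.00130 with the wider matrix gate. Tgfbr3 in matrix over other fibroblasts was -0.0105 with no replicate block, -0.00517 with doublets kept and -0.00295 at 1000 or more UMIs. In Pi16 over matrix fibroblasts Tgfbr3 was -0.46 with DESeq2, -0.53 with median-ratio factors, -0.0472 with cells in several gates kept, -1.11 with library totals and -0.00940 with the wider gate; Tgfb3 was -0.46, -0.45, -0.77, -1.10 and -0.99 under the same 5. Ltbp3 in matrix over other fibroblasts was 0.0260 with cells in several gates kept. Tgfb1 in endocardial over other endothelium was -0.11 with no filter, -0.29 with cells in several gates kept, -0.21 with doubled gates and -0.33 with Dcn-positive cells kept. Ltbp3 in endothelium over macrophages was 0.55, 0.17, 0.25 and 0.40 with cells in several gates kept, doubled gates, library totals and Dcn-positive cells kept. Tgfb1 there was 0.23 with library totals, as was Tgfbr2 in fibroblasts over macrophages at 0.24. In endothelium over mural cells Tgfbr1 was -0.0246 with cells in several gates kept and Tgfb2 0.46 with Dcn-positive cells kept. The cause was not tested. Few cells, and so few UMIs in all, limit the mural, matrix and endocardial values.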
